A study of Mus musculus with 12 samples.

Results

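The transcriptome of the 6DT1 line edited with the first guide against Resf1 (sg1) was compared with that of the line carrying the control guide (sgControl). The comparison used the 3 libraries whose column names carry Resf1_sg1_9 and the 3 whose names carry Resf1_sg_ctrl, which is 6 of the 12 libraries of the series, and all 982 genes of the deposited table. 6DT1 is a mouse mammary cancer cell line derived from a MMTV-Myc tumor, and puromycin is listed in the medium of every group. The labels give sgControl as wild type with the treatment sgScranble control, and sg1 as a Resf1 knockout. Per the study's methods the guides lie in the largest exon of Resf1 and were delivered with LentiCRISPRV2-GFP, and edited cells were sorted for GFP and grown as single-cell clones. The sg1 line is therefore 1 clone, its 3 libraries are dishes of that clone, and the effect of the guide and the history of the clone cannot be told apart. P-values measure the spread between dishes only.

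RESF1, the retroelement silencing factor, is a nuclear protein known for its partnership with the histone methyltransferase SETDB1, which silences endogenous retroviruses in mouse embryonic stem cells. Loss of a silencing factor can raise single genes whose start lies near a viral repeat, and double-stranded RNA from repeats can activate interferon-stimulated genes. MYC, the transcription factor whose transgene drove the tumor from which 6DT1 cells came, activates genes of ribosome production, nucleotide synthesis and mitochondria. These statements are background, and the comparison asks which genes and functions differed in the sg1 line, with and without the genes of chromosome 15.

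The values are normalized counts, that is, estimated read counts divided by 1 size factor per library, and they do not show the depth of a library. The table summed to between 2069298 and 2299634 in the sgControl libraries and between 2301831 and 2713951 in those of sg1. A single feature without a symbol, ENSMUSG00000119584, held 16.1% to 29.3% of these sums, and the median SD between replicates was 0.09 in sgControl and 0.08 in sg1 on the log2 scale. In the mean of the 3 guide lines against sgControl all 982 genes had an unadjusted p under 0.05 in limma, the largest being 0.0412, a comparison added after the values were seen. How the genes of the table were chosen is not given in the sources used here, and every count below applies within it. The mean of the 3 guide lines includes the sg1 libraries. The shares of genes called or not overlapping in sg1 against sgControl are therefore not independent of which genes the table holds. Resf1 itself was not analysed here, and the knockout label has no check in these values. Of 14 mammary epithelial markers the table held Krt8, Krt18 and Krt19, which summed to between 12315 and 12775 in sgControl and between 22937 and 25215 in sg1, and of which Krt8 and Krt18 lie on chromosome 15. Of 10 macrophage markers it held Cd68, at 102 to 154 in sgControl and 283 to 327 in sg1. Markers of lymphocytes, fibroblasts and endothelium were not in this table, which says nothing of their level. In bulk RNA, a change in the number of cells of a type and a change in RNA per cell cannot be told apart. These libraries are of a cell line, so the markers give no count of cell types.

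Of the 982 genes, 876 passed an adjusted p of 0.05 in limma, which is 89.2% of the table, with 492 higher in sg1 (50.1%) and 384 lower (39.1%). Without the 94 genes of chromosome 15 the split was closer to even, with 790 of 888 genes past the threshold (89%), 414 of them higher (46.6%) and 376 lower (42.3%). On chromosome 15 alone 86 of 94 genes passed (91.5%), 78 higher (83%) and 8 lower (8.51%). The 3 sg1 libraries lay wholly outside the range of the 3 control libraries for 880 genes (89.6%), above it for 490 (49.9%) and below it for 390 (39.7%). The genes of chromosome 15 were not spread evenly over the sizes of change. They made up 36 of the 136 rises between 1.5-fold and 2-fold (26.5%) and 25 of the 169 between 1.2-fold and 1.5-fold (14.8%), but 1 of the 23 rises of at least 4-fold (4.35%). Among falls of at least 2-fold they were 2 of 70. Of the 12 largest rises over all chromosomes 1, Fbln1, lay on it, and of the 12 largest falls 1, Mapk12. With the table total as the scaling, 45.7% of the calls were higher in place of 56.2%, so the balance of rises and falls depends on the scaling.

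Off chromosome 15 the largest rise was that of Ankrd66, an ankyrin repeat gene on chromosome 17. It stood at 14.7, 18.1 and 12.4 normalized counts in the 3 sgControl libraries and at 1015, 959 and 1011 in those of sg1, a 66-fold ratio of means (log2 fold change 5.97, SE 0.22, adjusted p = 4.42e-13). No other guide line shared this level, as the means were 11.2 ± 2.79 in sg2 and 20.7 ± 4.64 in sg3 (SD, n = 3). Nes on chromosome 3 encodes nestin, an intermediate filament protein of progenitor cells. Its values were 151, 161 and 142 in sgControl and 2344, 2454 and 2082 in sg1 (log2 fold change 3.91, SE 0.11, adjusted p = 1.27e-14). The other guide lines lay on either side of the control, with means of 958 ± 22.9 in sg2 and 5.39 ± 0.714 in sg3. The sgControl and sg1 groups were far apart for both genes, and the spread within a line was small beside the gap.

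Several further rises were of receptors, enzymes and regulators with low values in the control. Notch4, a receptor of the Notch family best known from mammary tumors and endothelium, was at 65.8, 79.8 and 90.6 in sgControl and at 453, 458 and 434 in sg1 (log2 fold change 2.51, SE 0.15). Trp53i11, a gene induced by p53, went from 150, 166 and 204 to 876, 891 and 968 (2.40, SE 0.16). In the other guide lines Trp53i11 was below its control level, at means of 48.7 ± 6.87 in sg2 and 26.0 ± 4.42 in sg3. Aldh3a1, an aldehyde dehydrogenase, rose from a mean of 42.5 ± 9.57 to 232 ± 8.18. Mdfi, which encodes an inhibitor of MyoD family transcription factors, rose from 18 ± 2.38 to 112 ± 12.5. Mcub, which encodes an inhibitory subunit of the mitochondrial calcium uniporter, rose from 23.8 ± 6.88 to 129 ± 3.17, and Ifit2, an interferon-induced gene, from 33.9 ± 15.4 to 146 ± 13. The rule that named these genes required that the libraries of both lines did not overlap and that the mean over the 6 libraries was at least 50.

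The remaining genes among the 12 largest rises were the long noncoding RNA genes Gm28187, Gm20186 and Gm2694 and the feature ENSMUSG00000121069. Gm2694 had means of 23.7 ± 3.33 in sgControl and 109 ± 22.2 in sg1. Of the 12 rises, 9 were also higher in sg1 than in the mean of sg2 and sg3. Gm20186 and ENSMUSG00000121069 were not past the threshold in that test, with log2 differences of 0.08 (adjusted p = 0.258) and -0.05 (adjusted p = 0.675), and Gm28187 was lower in sg1 by that test. This second test shares the sg1 libraries that chose the genes, so it is not independent of the choice. Over the whole table it called 698 genes (71.1%), 441 higher (44.9%) and 257 lower (26.2%) in sg1.

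**Figure D1:**
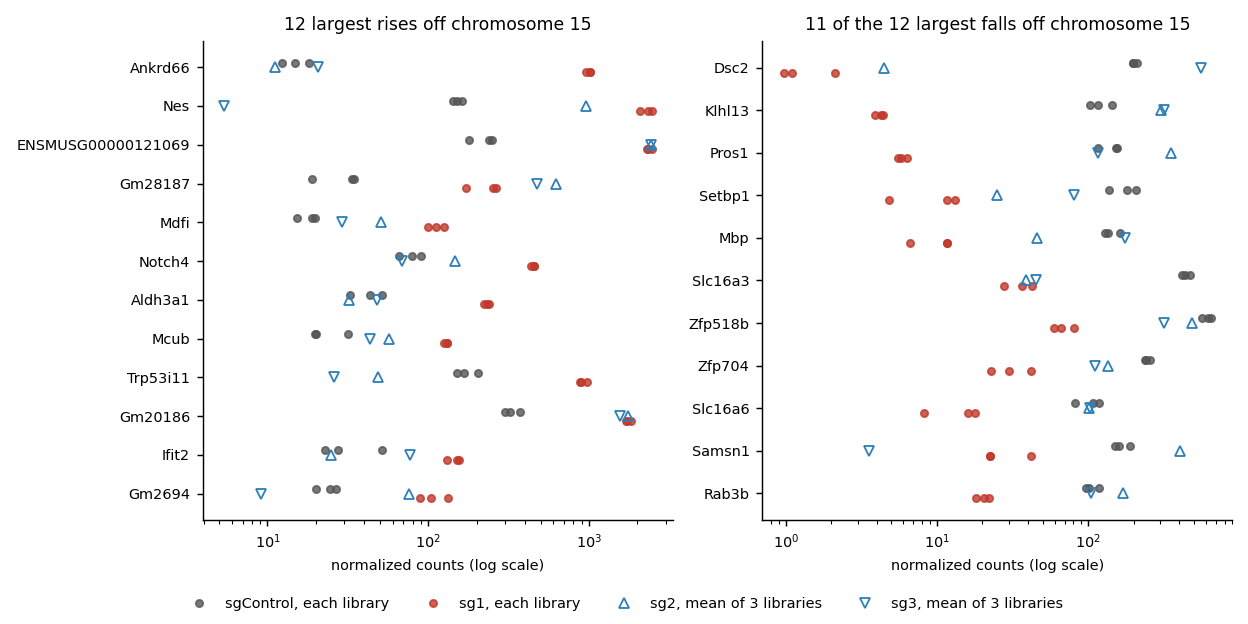
Normalized counts on a log axis for the 12 largest rises (left) and 11 of the 12 largest falls (right) in sg1 off chromosome 15, with 1 dot per sgControl or sg1 library and open triangles for the means of sg2 and sg3. Dots of sgControl and sg1 do not overlap, as the rule that chose the genes requires, and Ankrd66 and Klhl13 have sg2 and sg3 means on the control side.

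The deepest falls off chromosome 15 were of genes at moderate levels in the control that were close to absent in sg1. Dsc2, which encodes the desmosomal cadherin desmocollin 2, was at 199, 197 and 212 in sgControl and at 2.13, 0.97 and 1.10 in sg1. Each sg1 library of Dsc2 was at or under a floor of 3 estimated reads per library, so the gene was at least 64.5-fold lower, a bound that covers counting error only. Dsc2 was also low in sg2, with a mean of 4.47 ± 2.44, and above the control in sg3, with a mean of 556 ± 42.0.

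Klhl13 on the X chromosome encodes an adaptor of a cullin ubiquitin ligase. Its values of 117, 102 and 144 in sgControl stood against 4.25, 3.88 and 4.42 in sg1 (log2 fold change -4.54, SE 0.17, adjusted p = 3.41e-13). Pros1, which encodes the anticoagulant protein S, a ligand of the TAM receptors, was at 156, 117 and 153 in sgControl and at 6.38, 5.82 and 5.52 in sg1 (-4.36, SE 0.17). Neither gene was near 0 in the other guide lines, where the means of sg2 and sg3 were 305 and 317 for Klhl13 and 354 and 116 for Pros1. The difference of sg1 from the mean of those lines was -5.90 for Klhl13 (adjusted p = 9.78e-16) and -4.88 for Pros1 (adjusted p = 2e-14) on the log2 scale.

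The other falls included a pair of monocarboxylate transporters and a pair of zinc finger genes. Slc16a6 had means of 103 ± 18.6 in sgControl and 14 ± 5.10 in sg1 (log2 fold change -2.84), while sg2 and sg3 were at 101 ± 6.57 and 103 ± 14.9. Slc16a3, which encodes the lactate exporter MCT4, had a mean of 35.7 ± 7.55 in sg1 and did not pass the threshold against the mean of the other guides (difference -0.21, adjusted p = 0.359). The zinc finger genes Zfp518b and Zfp704 fell from 613 ± 40.9 to 68.8 ± 11 and from 245 ± 8.97 to 31.5 ± 9.78. Rab3b, a small GTPase of regulated exocytosis, fell from 105 ± 10.7 to 20.2 ± 2.02. Mbp, the gene of myelin basic protein, fell from 142 ± 17.6 to 9.99 ± 2.91, Setbp1, whose product binds the SET protein, from 175 ± 35.2 to 9.93 ± 4.47, and Samsn1, which encodes an adaptor protein, from 167 ± 20.1 to 28.9 ± 11.4. Of the 12 largest falls, 11 were also lower in sg1 than in the mean of sg2 and sg3, all but Slc16a3.

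On chromosome 15 the change had a different shape, with most of its genes in the table shifted by a similar amount rather than a few by a large one. The median log2 fold change of its 94 genes was 0.62 (quartiles 0.46 and 0.79), a fold of 1.54, against 0.12 (quartiles -0.35 and 0.61) for the 888 others. The medians of the other chromosomes ran from -0.30 on chromosome 16 to 0.44 on chromosome 1. The difference of medians between chromosome 15 and the rest was 0.50. Against the mean of sg2 and sg3, 85 of the 94 genes were higher in sg1 and 2 lower. Over the whole table those shares were 44.9% and 26.2%. The first 10 genes in order, from the proximal end up to Drosha, had a median of 0.07 with 1 gene higher and 2 lower, and the 84 genes beyond Drosha had a median of 0.64 with 77 higher and 6 lower. That boundary was chosen after the values were seen, so no test is given. Every gene of the table had an unadjusted p under 0.05 in the mean of the 3 guide lines against sgControl. A gene flat in sg1 may be in the table through sg2 or sg3, so these counts need not hold for other genes of the chromosome.

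**Figure D2:**
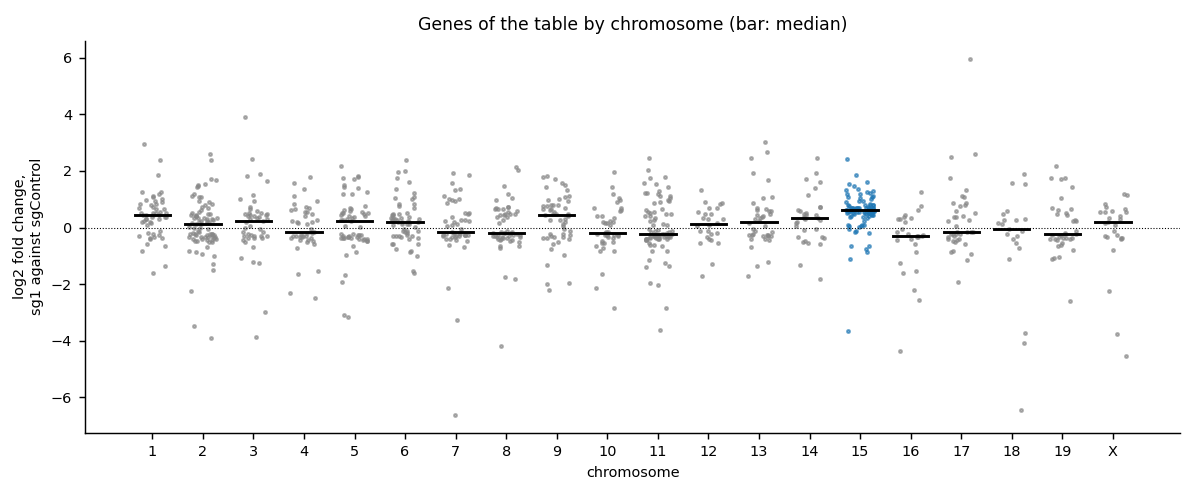
Log2 fold change of sg1 against sgControl for each gene of the table, by chromosome, with a bar at each median. The median of chromosome 15 is at 0.62 and those of the other chromosomes lie between -0.30 and 0.44.

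Among genes of chromosome 15 with a mean of at least 50 over the 6 libraries, those farthest above the shared shift were Fbln1, Amigo2, G930009F23Rik, Apol9a and H1f0, and the less abundant Gm36026, named after its values were seen, had a log2 fold change of 1.84. Fbln1 encodes fibulin 1, a protein of the extracellular matrix. It was at 83.5, 75.3 and 78.2 in sgControl and at 375, 435 and 477 in sg1 (log2 fold change 2.42, SE 0.26, adjusted p = 2.03e-07), with means of 30.4 ± 3.95 in sg2 and 2.40 ± 1.30 in sg3. Amigo2, an adhesion gene, rose from 245 ± 13.2 to 745 ± 13.6, and was also at 583 ± 33.9 in sg2 and 564 ± 55.3 in sg3. H1f0, the replacement linker histone, rose from 875 ± 121 to 2246 ± 71.7, and Apol9a, of the apolipoprotein L family, from 322 ± 28.8 to 897 ± 68.8. The long noncoding RNA gene G930009F23Rik rose from 53.3 ± 0.818 to 156 ± 6.82.

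Against this background 8 genes of chromosome 15 were lower in sg1. Mapk12, which encodes the stress kinase p38 gamma, fell furthest, from 155, 139 and 173 in sgControl to 8.51, 14.5 and 12.2 in sg1 (log2 fold change -3.64, SE 0.19, adjusted p = 3.18e-11). Its means in sg2 and sg3, at 174 ± 32.2 and 172 ± 21, were on the control side. Myc lay between neighbours in the table that rose: Washc5 before it had a log2 fold change of 0.69 and Pvt1 after it of 0.69, while Myc was at -0.87 (SE 0.08, adjusted p = 4.38e-08). Fzd6, a Wnt receptor gene, fell from 535 ± 39.3 to 316 ± 18.1. Tst, which encodes a sulfurtransferase, fell from 94.1 ± 9.10 to 60.9 ± 15.6. Ccn3, a matricellular protein gene, had a log2 fold change of -0.64 (adjusted p = 0.0301) that did not hold without single libraries, with adjusted p-values of 0.0695 and 0.0757 without sgControl replicates 2 and 3 and of 0.111 and 0.0946 without sg1 replicates 2 and 3. The count of 8 became 5 without sgControl replicate 2 or without sg1 replicate 2.

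**Figure D3:**
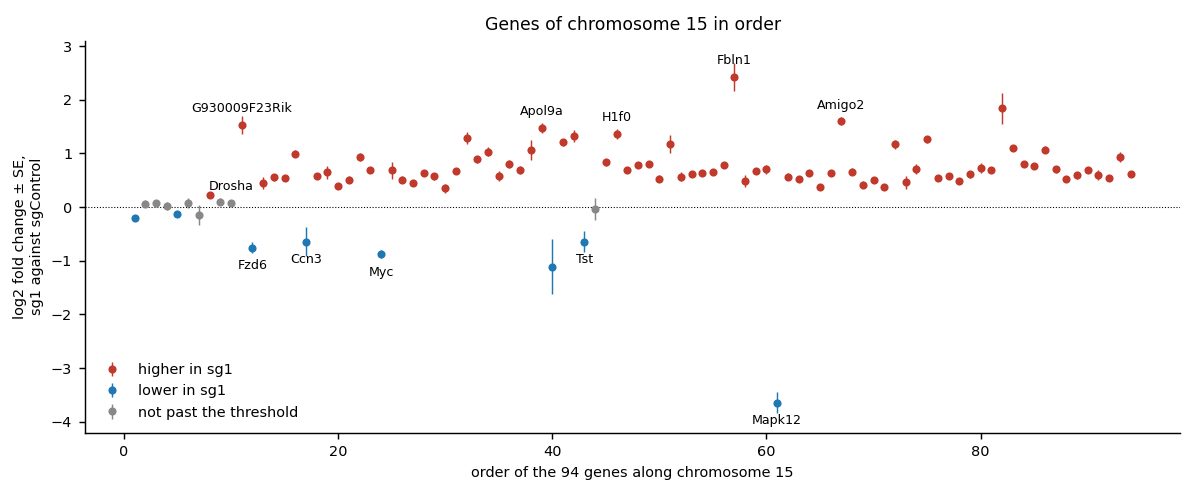
Log2 fold change ± SE of sg1 against sgControl for the 94 genes of chromosome 15 in their order along the chromosome. The genes up to Drosha lie near 0 (median 0.07) and most of those beyond it near 0.64, with Fbln1 at 2.42 and Mapk12 at -3.64 as the extremes.

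Gene lists by function were then described, 30 in all, by the number of members past the threshold and the median log2 fold change. These lists were written with earlier results of these data known and carry no test. The reference for each is the table itself, with 50.1% of genes higher, 39.1% lower and a median of 0.20, or of 0.12 without chromosome 15. The 5 other scalings shifted every fold change by between -0.21 and 0.02, and the medians of the lists described here as mostly higher or mostly lower kept their sign under each of them.

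Interferon-stimulated genes and genes of antigen presentation were mostly higher, with 9 of 10 past the threshold and none lower, a median of 0.91, and no member on chromosome 15. Products of these genes sense or restrict viral nucleic acid. Trim30a, of the TRIM family, was at 90.3, 78.0 and 84.8 in sgControl and at 288, 301 and 334 in sg1 (log2 fold change 1.85, SE 0.24, adjusted p = 1.78e-06). Gbp4, which encodes a guanylate-binding GTPase, was at 85.5, 91.2 and 98.2 in sgControl and at 336, 296 and 307 in sg1 (1.76, SE 0.14). Ifi205, of the family of cytosolic DNA sensors, rose from 19.8, 22.8 and 27 to 101, 68.4 and 90.8 (1.85, SE 0.29). Ddx58, the gene of the RNA sensor RIG-I, rose less, from 852 ± 46.2 to 1253 ± 31.1. The rises were uneven, and Rsad2, which encodes the antiviral enzyme viperin, had overlapping groups at 18.7, 12.7 and 36.2 in sgControl and 27.6, 18.4 and 32.0 in sg1 (0.29, adjusted p = 0.473). All 10 members were higher in sg1 than in the mean of sg2 and sg3, where Trim30a had means of 15.6 ± 5.01 and 6.14 ± 1.77. Ifi205, Ifi204, Gbp9 and Trim30a have close paralogs, so reads could be split among copies.

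The promoter windows of 3 of these genes are shown because the letters bound by interferon-activated factors lie at the start of genes that rose and of one that did not pass the threshold. The interferon-stimulated response element was searched as GAAA, any 2 bases and GAAA again, on both strands, a search added after the values were seen, in RefSeq windows of 300 bases (250 before the start and 50 after it) on build GRCm38.p6. It was found in 4 of the 7 listed genes with a window, Ddx58, Ifi205, Rsad2 and Trim30a. It was in 3.99% of all 27025 windows, 4.99% of the 702 matched genes of the table, 7.25% of those higher in sg1 and 2.44% of those lower. The stretches below run 5′ to 3′ on the strand of the gene, with the element in capitals, and all 3 genes lie on the minus strand. They are chr1:174031840-174031929 for Ifi205, chr12:26456523-26456612 for Rsad2 and chr7:104465194-104465269 for Trim30a. In Rsad2 and Trim30a the letters are on the opposite strand and are shown as read on the strand of the gene.
Ifi205: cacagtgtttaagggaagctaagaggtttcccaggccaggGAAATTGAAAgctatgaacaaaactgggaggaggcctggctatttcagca
Rsad2: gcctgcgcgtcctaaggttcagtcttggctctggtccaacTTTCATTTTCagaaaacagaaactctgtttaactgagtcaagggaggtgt
Trim30a: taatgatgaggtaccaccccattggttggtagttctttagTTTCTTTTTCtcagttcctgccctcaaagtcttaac
A match is a description of letters and not evidence of a bound factor.

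Cytokines, chemokines and their receptors were also mostly higher, with 9 of 10 higher, none lower and a median of 0.66, again with no member on chromosome 15. Tnfrsf23 and Tnfrsf26, neighbouring decoy-type receptors of the TNF family with similar sequences, rose from 1496 ± 79.1 to 2852 ± 73.5 and from 1086 ± 63.1 to 2167 ± 127. Ccl2, the monocyte chemokine gene, was at 1407, 1449 and 1397 in sgControl and at 2137, 2100 and 2424 in sg1 (log2 fold change 0.64, SE 0.08). Cx3cl1, the gene of the chemokine fractalkine, was at 1855, 1867 and 1987 against 3003, 3000 and 3082 (0.67, SE 0.07). Tnfrsf21 was the exception, with a log2 fold change of -0.16 that did not pass the threshold.

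Matrix and adhesion genes were mostly higher. Of 25 genes of the extracellular matrix, proteases and integrins 20 were higher and 2 lower, with a median of 0.67, and without chromosome 15 the numbers were 18 and 2 of 23 with a median of 0.66. Ecm1, extracellular matrix protein 1, was at 2747, 3190 and 2587 in sgControl and at 9017, 9367 and 8355 in sg1 (log2 fold change 1.65, SE 0.07, adjusted p = 1.93e-12), against means of 2817 ± 171 in sg2 and 2623 ± 78.5 in sg3. Col12a1, a collagen that decorates fibrils, rose from 202 ± 32.2 to 690 ± 60.2. Of the 2 members that fell, Col24a1, also a collagen gene, went from 62.9, 47.2 and 96.3 to 3.19, 1.94 and 6.63, and Itga8, an integrin gene, had a log2 fold change of -0.48. Cell junction and keratin genes rose in 7 of 8 cases, Dsc2 being the exception, with a median of 0.95 both with and without chromosome 15. Gjb5, a connexin gene, rose from 30.1 ± 4.88 to 91.0 ± 9.07 and Pcdh12, a protocadherin gene, from 143 ± 19.97 to 534 ± 22.5. Cytoskeletal and motor genes were higher in 17 of 21 cases and lower in 2 (median 0.59), and in 13 and 2 of 17 without chromosome 15 (median 0.52). Among them Dnm1, the gene of the endocytic GTPase dynamin 1, rose from 79.3 ± 7.90 to 262 ± 16.9.

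Signalling genes had more exceptions, and their counts moved with the scaling. Among 21 ligands, receptors and mediators of growth factor, Wnt, Notch, TGF-beta and Hedgehog signalling, 15 were higher and 5 lower (median 0.45), and over the other scalings 11 to 15 were higher. Ephb2, an ephrin receptor gene, was at 199, 239 and 198 in sgControl and at 727, 756 and 735 in sg1, with means of 6.36 ± 1.43 in sg2 and 452 ± 41.3 in sg3. Vegfa, the angiogenic growth factor gene, fell from 377 ± 47.3 to 265 ± 18.1. Of 35 kinases and phosphatases 21 were higher and 11 lower (median 0.38), with 14 to 21 higher and 10 to 11 lower over the scalings (median 0.17 to 0.40). Ptpn22, a phosphatase of immune receptor signalling, rose from 90.4 ± 18.1 to 321 ± 20.2 and Fyn, a kinase of the Src family, from 297 ± 11.4 to 552 ± 29.5, whereas Ptprf, a receptor phosphatase gene, fell from 93.0 ± 35.9 to 30.9 ± 9.81. Of 31 small GTPases and regulators 20 were higher and 9 lower (median 0.31), with 10 to 21 higher and 7 to 9 lower over the scalings (median 0.10 to 0.33). Arhgef10, which encodes an exchange factor for small GTPases, rose from 165 ± 10.2 to 669 ± 17.5.

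**Figure D4:**
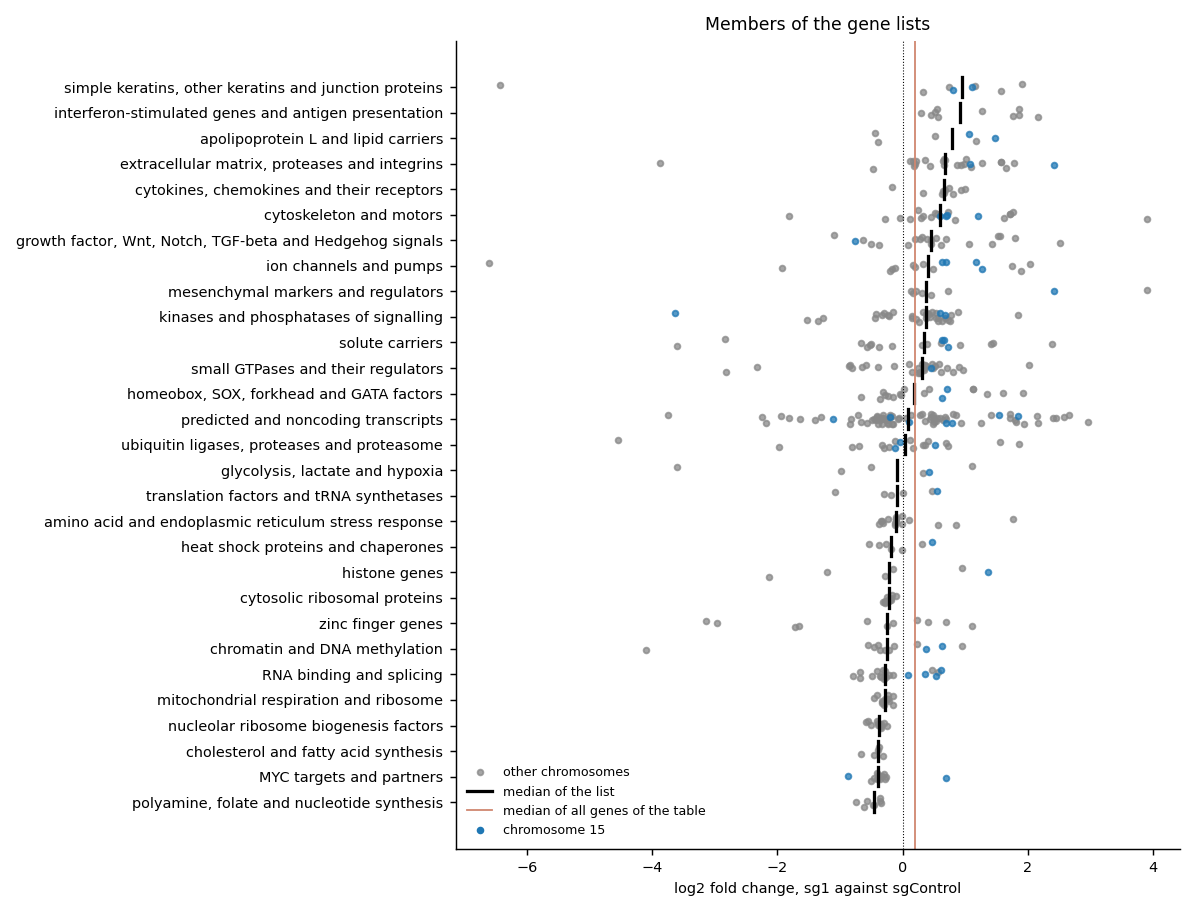
Log2 fold change of sg1 against sgControl for the members of each list with at least 5 members, with blue dots on chromosome 15, a black bar at the median of the list and an orange line at the median of the table (0.20). Lists of nucleolar factors (median -0.38) and of nucleotide synthesis (-0.46) lie wholly below 0, and those of interferon-stimulated genes (0.91) wholly above it.

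The functions lowered in sg1 moved by small amounts in nearly every member. Of 12 nucleolar factors of ribosome production all were lower, between -0.59 and -0.26 on the log2 scale (median -0.38), and none lies on chromosome 15. Rrp1b, a factor of ribosomal RNA processing, was at 2058, 2078 and 1926 in sgControl and at 1367, 1365 and 1284 in sg1 (log2 fold change -0.59, SE 0.06, adjusted p = 4.27e-08). Nle1, which acts in maturation of the large subunit, fell from 461 ± 17.7 to 315 ± 23.7, and Polr1b, the second subunit of RNA polymerase I, from 1597 ± 119 to 1126 ± 96.6. The groups did not overlap in any of the 12 genes, beside 39.7% of the table in which every sg1 library was below every control library. Of these 12 genes 10 were also lower in sg1 than in the mean of sg2 and sg3.

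All 8 genes of polyamine, folate and nucleotide synthesis were lower, with a median of -0.46. Impdh1, an enzyme of guanine nucleotide synthesis, was at 1372, 1435 and 1370 in sgControl and at 809, 845 and 830 in sg1 (log2 fold change -0.75, SE 0.07, adjusted p = 3.16e-08), against means of 1412 ± 58.7 in sg2 and 1135 ± 117 in sg3. Shmt1, a serine hydroxymethyltransferase of the folate cycle, fell from 920 ± 61.3 to 599 ± 30.7, and Srm, spermidine synthase, from 3806 ± 366 to 2777 ± 193. Of the 8 genes each was also lower in sg1 than in the mean of sg2 and sg3.

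Genes regarded as targets or partners of MYC overlap these lists. Without chromosome 15 all 11 were lower, with a median of -0.40, and Myc mRNA was itself lower, at 17718, 15024 and 18849 in sgControl and 9470, 9364 and 9189 in sg1. Reads of the gene on chromosome 15 and of a Myc transgene cannot be told apart. The E-box CACGTG, which MYC binds and which reads the same on both strands, was in 8.09% of all promoter windows. In the genes of the table it was in 16.1% of windows, with 15.1% among those higher in sg1 and 17.8% among those lower. Of the 11 nucleolar genes with a window, 3 held it (Mybbp1a, Nle1 and Nop2). Of the polyamine, folate and nucleotide synthesis genes, 0 of the 6 with a window held it. The window of Nop2, a nucleolar RNA methyltransferase gene that went from 2375, 2635 and 2092 to 1743, 1968 and 1845, is shown around the E-box in capitals at chr6:125131783-125131868 on the plus strand of GRCm38.p6.
Nop2: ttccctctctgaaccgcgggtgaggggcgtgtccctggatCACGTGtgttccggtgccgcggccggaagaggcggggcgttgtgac

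**Figure D5:**
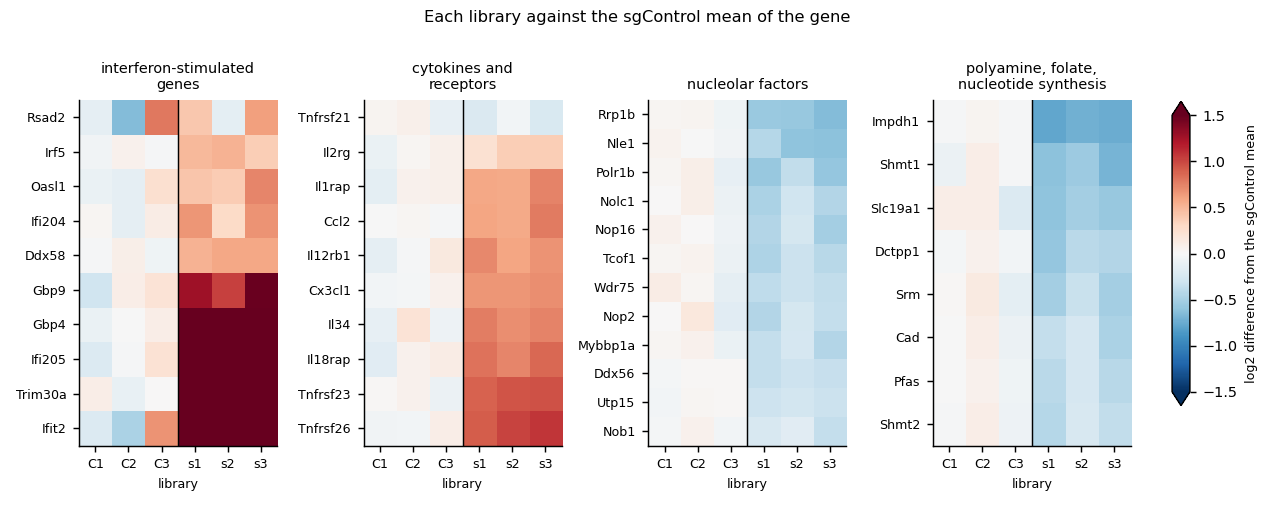
Each library's log2(value + 1) minus the sgControl mean of the gene, for sgControl libraries 1 to 3 (C1 to C3) and sg1 libraries 1 to 3 (s1 to s3), in 4 lists. Colours saturate at 1.5 in either direction, and the sg1 columns are red in 9 of 10 interferon-stimulated genes past the threshold and blue in all 12 nucleolar and all 8 synthesis genes.

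Mitochondrial and cytosolic ribosomal protein genes fell by still smaller amounts. Of 13 genes of mitochondrial respiration and mitochondrial ribosomes all were lower (median -0.28), among them Mrpl47, a mitochondrial ribosomal protein gene, from 471 ± 2.86 to 345 ± 24.4 and Cox15, an assembly factor of cytochrome oxidase, from 910 ± 14.6 to 684 ± 35.2. Of 11 cytosolic ribosomal protein genes 10 were lower (median -0.22). Against the mean of sg2 and sg3, 2 of these 11 were lower in sg1 and 1 higher. Of the 13 mitochondrial genes 6 were lower and 1 higher in that test, which called 26.2% of the table lower. Rpl7a fell from 3216 ± 18.1 to 2632 ± 125, a fall that did not pass a test against a 1.2-fold change (adjusted p = 0.437). Among 5 genes of cholesterol and fatty acid synthesis 4 were lower (median -0.39), including the mevalonate pathway gene Mvd, from 107 ± 20.4 to 66.5 ± 6.03. RNA binding and splicing genes were lower in 14 of 20 cases and higher in 5 (3 to 5 over the scalings), of which 3 lie on chromosome 15. Rbm20, a splicing regulator of muscle, fell from 585 ± 26.3 to 336 ± 11.5. Chromatin genes were lower in 8 of 12 cases and higher in 4 (2 to 4 over the scalings), of which 2 lie on chromosome 15. Pcgf6, a Polycomb subunit gene, fell from 426 ± 9.03 to 292 ± 15.3 and Chd5, a chromatin remodeller gene, rose from 133 ± 23.4 to 257 ± 36.3.

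Some functions split, and for several of them the balance depended on chromosome 15. Of 18 solute carriers 10 were higher and 8 lower with a median of 0.35, and of the 15 off chromosome 15 the numbers were 7 and 8 with a median of -0.17. Ion channels and pumps had a median of 0.41 with that chromosome and 0.18 without it. Aqp1, a water channel gene off chromosome 15, rose from 585 ± 63.4 to 1954 ± 22.1, and Kcnab3, a potassium channel subunit gene, from 19.8 ± 3.29 to 83.9 ± 10.4. Of 6 glycolytic and hypoxia genes 3 were higher and 3 lower (median -0.09), and over the scalings 1 to 3 were higher. Of the 5 off chromosome 15, 2 were higher and 3 lower (median -0.50). Epas1, the gene of the hypoxia factor HIF-2 alpha, rose from 353 ± 57.3 to 755 ± 22 while Pfkfb4, which controls glycolytic flux, fell from 226 ± 6.24 to 115 ± 14.7. Ubiquitin pathway genes were higher in 9 of 20 cases and lower in 8, and over the scalings in 5 to 9 and 7 to 9, with Trim71, a ubiquitin ligase gene of early development, falling from 999 ± 28.7 to 253 ± 19.7 while sg2 and sg3 stood at 1324 ± 102 and 1178 ± 128. Among transcription factors 9 of 18 were higher and 6 lower, and off chromosome 15 the numbers were 7 and 6 of 16. Hoxa7, a homeobox gene, rose from 149 ± 21.4 to 378 ± 11.7, whereas the other guide lines had means of 19.4 ± 3.64 and 8.74 ± 3.17. The median of the transcription factors, of the ubiquitin pathway genes and of the predicted transcripts changed sign under other scalings.

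In absolute terms a different set of genes carried the change. Among genes past the threshold whose groups did not overlap, the largest rises in normalized counts were of Plec, Malat1 and Myh9. ENSMUSG00000119584 changed by more counts but its groups overlapped, at 555281, 378350 and 332724 in sgControl and 411551, 596484 and 794063 in sg1 (log2 fold change 0.49, adjusted p = 0.043). Plec and Myh9, which encode the linker protein plectin and the heavy chain of nonmuscle myosin, both lie on chromosome 15. Plec went from 46549, 44990 and 41393 to 71335, 75247 and 68092, and Myh9 from 12513, 12637 and 11187 to 27923, 30217 and 25873. Malat1, an abundant nuclear noncoding RNA, rose from 57349 ± 6470 to 80307 ± 8319, and sg2 and sg3 had means of 70274 ± 7556 and 82174 ± 12318. By the same rule the largest falls were of Rpph1, the RNA of ribonuclease P, from 129951 ± 3273 to 99909 ± 12596, of the feature ENSMUSG00000118642 and of Myc. The fall of Rpph1 had an adjusted p of 0.00754 and of 0.0506 without sg1 replicate 1.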

How the data were processed

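RNA was sequenced from 12 libraries of 6DT1 cells, of which the 3 of sgControl and the 3 of sg1 were compared, with sg2 and sg3 in the same fit. The authors deposited a normalized signal per gene, which is an estimated count divided by a size factor. STAR (version 2.7.8a), Partek and DESeq2 are named in the submitters' processing notes, and the mouse build, annotation and counting method are not given in the sources used here. Between 79.8% and 83.4% of values under 100 in the 6 libraries were whole reads to within 0.05 (10% by chance), so counts were not recovered and no count model was used.

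Values were tested as log2(value + 1), which understates changes of low genes, with limma (version 3.58.1, R 4.3.3), 4 group means, trend and robust estimates, no filter and Benjamini-Hochberg adjustment over 982 genes at 0.05. Folds in the text are ratios of group means. Symbols and chromosomes came from GENCODE M21, and 972 genes matched. The fit was run on simulated libraries in which a minority of genes changed by known folds. Replicates there were independent and the scaling was not shifted, so those features of the data were not tested.

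Members, lists and tests were chosen with earlier results of these data known, and 7 symbols were removed from lists after values were seen. Named genes had to pass the threshold without overlap of groups and with a mean of at least 50: the 12 largest rises and falls off chromosome 15, 5 each on it, 3 each by change in counts and 2 each per list. Of the 12 falls 1 is not reported here. Not every such gene is described, and further list members (Gbp4, Ifi205, Rsad2, Ccl2, Cx3cl1, Tnfrsf21, Col24a1, Itga8, Nop2, Pvt1 and Washc5) were chosen after their values were seen. Same-numbered sgControl and sg1 libraries deviated together (correlations 0.22, 0.20 and 0.24, others -0.14 to -0.07). That pairing comes from these correlations alone. Alternatives were 5 scalings, 2 pseudocounts, a mean filter of 50, the 6 libraries alone, the replicate block, each library left out, a test against a 1.2-fold change and a fit without trend.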

Additional observations from a re-analysis of the deposited data

Results flagged for a closer look

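The effect of the sg1 line was set against that of the other guide lines by the difference of sg1 from the mean of sg2 and sg3, tested in limma. It passed an adjusted p of 0.05 in 698 of 982 genes. Of 105 genes given by symbol in the text 90 passed, 58 higher and 32 lower in sg1, and they are given here by their log2 difference. The test shares the sg1 libraries that chose many of them.

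Among the genes with the largest changes on and off chromosome 15, those lower in sg1 than in the other guide lines were Dsc2 (-4.50), Klhl13 (-5.90), Pros1 (-4.88), Setbp1 (-2.16), Mbp (-3.08), Mapk12 (-3.79), Zfp518b (-2.50), Zfp704 (-1.97), Slc16a6 (-2.84), Samsn1 (-0.57), Rab3b (-2.66), Myc (-0.75) and Gm28187 (-1.25). Of these Gm28187 was higher in sg1 than in sgControl.

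Among the same genes, those higher in sg1 were Ankrd66 (5.96), Fbln1 (5.42), Nes (4.87), Trp53i11 (4.65), Aldh3a1 (2.55), Notch4 (2.16), Gm2694 (1.97), Ifit2 (1.73), Mdfi (1.53), Apol9a (1.5), Ccn3 (1.41), G930009F23Rik (1.37), Mcub (1.36), H1f0 (1.27) and Amigo2 (0.38). Ccn3 was lower in sg1 than in sgControl and lower still in sg2 (32.0) and sg3 (9.00).

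Among interferon-stimulated and cytokine genes the differences were 4.86 for Trim30a, 1.93 for Gbp4, 1.87 for Rsad2, 1.67 for Ifi205, 1.05 for Gbp9, 0.41 for Ddx58 and 0.28 for Ifi204, and 1.14 for Tnfrsf26, 0.71 for Cx3cl1, 0.50 for Ccl2, 0.47 for Tnfrsf23 and 0.34 for Tnfrsf21. Rsad2 and Tnfrsf21 did not pass the threshold against sgControl. Matrix and junction genes were at 1.81 for Col12a1, 1.71 for Ecm1, -1.81 for Col24a1, 2.35 for Pcdh12, 1.2 for Gjb5, 1.23 for Krt8, 0.97 for Krt18 and 1.2 for Krt19. Cytoskeletal genes were at 1.27 for Myh9, 1.11 for Dnm1, 0.65 for Plec, 0.51 for Tpm2 and 0.68 for Washc5.

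Signalling genes were at 3.69 for Ephb2, 1.76 for Ptpn22, 1.19 for Arhgef10 and 0.33 for Fyn. Regulators of transcription and chromatin were at 4.78 for Hoxa7, 0.96 for Zfp651, 0.50 for Chd5, -0.38 for Pcgf6, 0.32 for Hist2h3c1 and 0.12 for Foxm1. Channel, lipid, hypoxia and stress genes were at 1.88 for Aqp1, 1.59 for Kcnab3, 0.70 for Pltp, 1.14 for Epas1, -1.01 for Pfkfb4, 0.87 for Nupr1, 0.54 for Vldlr and -0.39 for Ppif. Nucleolar and synthesis genes were lower in sg1, at -0.49 for Rrp1b, -0.41 for Nle1, -0.30 for Polr1b, -0.20 for Mybbp1a, -0.18 for Nop2, -0.64 for Shmt1, -0.61 for Impdh1 and -0.31 for Srm. So were Mrpl47 (-0.30), Cox15 (-0.21), Rpl7a (-0.18), Eif5a (-0.14), Rbm20 (-0.75), Cenpv (-0.32) and Trim71 (-2.29). Of the remaining genes Drosha was at 0.46, Gm36026 at 1.25, the macrophage marker Cd68 at 0.98 and 3830417A13Rik, which was lower in sg1 than in sgControl, at 0.69.

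In 11 of the 90 genes the means of sg2 and sg3 lay on different sides of the control mean, each by more than the larger SD of the groups compared, a tolerance set after the values were seen. The difference for these genes averages lines on opposite sides of the control. Among those lower in sg1, Dsc2 had means of 4.47 and 556 in sg2 and sg3 against 203 in sgControl, Samsn1 of 406 and 3.58 against 167, Pros1 of 354 and 116 against 142, and Mbp of 46 and 174 against 142. Among those higher in sg1, Nes had 958 and 5.39 against 152, Ephb2 6.36 and 452 against 212, Gm2694 75.4 and 9.05 against 23.7, and Ankrd66 11.2 and 20.7 against 15.1. Aqp1 had 365 and 775 against 585, Col12a1 153 and 251 against 202, and Tnfrsf26 1213 and 803 against 1086.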

How the results depend on the processing

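No named gene changed direction: of 114 named genes, 88 kept both direction and call under each of the 18 alternatives that gave them a value, and 6 of the 114 had no value under the filter on a mean of 50 over the 12 libraries. Of the named genes that the text describes, 9 lost their call in the test against a 1.2-fold change, with adjusted p-values of 0.0618 for Tst, 0.0637 for Vegfa, 0.0637 for Malat1, 0.141 for Ccn3, 0.175 for Foxm1, 0.231 for ENSMUSG00000118642, 0.25 for Rpph1, 0.434 for Eif5a and 0.437 for Rpl7a. The test against a 1.2-fold change lowered the calls to 511 (157 lower), with 154 lower without chromosome 15 and 3 on it, and the calls against the mean of sg2 and sg3 to 390. Under the median-of-ratios, TMM and total scalings and the total without the most abundant feature, the median was 0.47, 0.48, 0.41 and 0.49 on chromosome 15 and -0.04, -0.02, -0.10 and -0.02 without it, so the median off chromosome 15 has no stable sign. The share of calls that were higher was 56.2%, 49.5% with median of ratios, 50.5% with TMM, 45.7% with the table total and 69.3% in the 1.2-fold test. With each library left out in turn the calls ran from 818 to 854 (468 to 488 higher, 350 to 366 lower), those without chromosome 15 from 390 to 410 higher and 344 to 360 lower, those on it at 78 higher and from 5 to 6 lower, and those against sg2 and sg3 from 642 to 703. The medians then ran from 0.61 to 0.64 on chromosome 15, from 0.10 to 0.12 off it and from 0.50 to 0.53 for their difference. With the replicate block that the pairing allows, 893 genes passed (502 higher, 391 lower), 7 genes of chromosome 15 were lower in place of 8, and no named gene lost its call. The depth of the libraries is unknown, so no interval from counts is given beyond the floor of 3 estimated reads, and the cause of the shifts with scaling was not tested.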

Other observations

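Further groups of the table were described by counts alone. Of 78 predicted and noncoding transcripts 30 were higher and 34 lower, with a median of 0.08, and of the 71 off chromosome 15 the numbers were 26 and 32 with a median of -0.06. The X-linked transcript 3830417A13Rik, for one, fell from 113 ± 16.4 to 23 ± 3.21. Among 11 zinc finger genes 4 were higher and 6 lower (2 to 4 higher and 6 to 7 lower over the scalings), with Zfp651 rising from 118 ± 14.2 to 256 ± 7.27. Among 6 histone genes 2 were higher and 3 lower: Hist2h3c1 rose from 148 ± 11.7 to 288 ± 48.9, and H2afy2, the gene of a macroH2A histone, fell from 91.8 ± 6.00 to 22.4 ± 13.3, close to its means of 16.3 and 15.2 in sg2 and sg3. Histone genes have near-identical copies, so their reads could be split.

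Of 17 genes of the amino acid and endoplasmic reticulum stress responses 4 were higher, 6 lower and 7 not past the threshold (median -0.11), and over the scalings 3 to 4 were higher and 5 to 13 lower (median -0.32 to -0.09). Vldlr, a lipoprotein receptor gene, rose from 345 ± 59.0 to 1164 ± 53.1 and Nupr1, a stress-induced chromatin protein gene, from 742 ± 24.2 to 1340 ± 74.2. Of 7 heat shock and chaperone genes 4 were lower and 2 higher (median -0.18), and over the scalings 3 to 5 were lower and 0 to 2 higher, among them Ppif, a mitochondrial cyclophilin gene, from 1342, 1189 and 1208 to 809, 911 and 847. Of 8 mesenchymal markers 5 were higher and none lower (median 0.38, and 0.31 without chromosome 15), and over the scalings 4 to 8 were higher (median 0.17 to 0.40), with Tpm2, a tropomyosin gene, rising from 1179 ± 64.8 to 1943 ± 101. Apolipoprotein L and lipid carrier genes had a median of 0.79 over 6 members and of 0.06 over the 4 off chromosome 15. Among them Pltp, a phospholipid transfer protein gene, rose from 50.7 ± 15.1 to 113 ± 15.7. Of 6 translation factors and tRNA synthetases 1 was higher and 2 lower, with Eif5a falling from 24908 ± 1011 to 20320 ± 403. Of 4 genes of the cell cycle Foxm1, a mitotic transcription factor gene, rose from 3275 ± 195 to 4125 ± 179 and Cenpv, a centromere protein gene, fell from 317 ± 21.7 to 177 ± 8.14. The rise of Foxm1 had an adjusted p of 0.223 when values were scaled to the table total.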
